A study of Mus musculus with 55 samples.

Results

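Clonal biliary epithelial cells (cBEC) and non-progenitor ducts (NPD) sorted from mouse liver after partial hepatectomy (PH) were compared gene by gene, with 2 libraries of each population. These 4 libraries are among 55 that measured 10 sorted liver populations by RNA sequencing in normal liver and after PH, an operation that removes part of the liver. The members of the comparison are all genes of the table, with the transcript of highest mean level kept for each gene symbol, which gave 24478 symbols. Of these, 13033 reached at least 1 FPKM (fragments of a transcript scaled to its length and to the reads mapped) in at least 2 of the 4 libraries and were tested.

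Every mouse was of the strain given as C57B/L6, and every population came from liver by fluorescence-activated sorting into TRIzol. The 4 groups used are cBEC after PH (2 libraries), NPD after PH (2), cBEC of normal liver (4) and NPD of normal liver (2). BEC, the biliary epithelial cells sorted as a population of their own, hepatocytes and Thy1 cells are given only as reference levels. The labels give neither genotype, age, sex, time after surgery nor sorting markers, so what sets a clonal cell apart from a duct that lacks progenitor activity is known by name only. One library conflicts with itself: PH cBEC library 1 is named as a PH sample but carries the treatment tag of normal liver. It correlated at 0.980 with PH cBEC library 2 and at 0.933 to 0.979 with the normal cBEC libraries (log2(FPKM + 1), across genes), and the main counts are also given without it. Nothing says that libraries of 1 group came from separate animals, so p-values measure the spread between these libraries, which may be technical.

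Biliary epithelial cells line the bile ducts of the liver, modify bile by moving water, bicarbonate and bile acids, and can contribute to repair when hepatocytes cannot. They carry the adhesion protein Epcam, simple keratins and the transcription factor Sox9. The mesothelium is the flat cell layer that covers the liver surface. It also makes keratins, along with mesothelin, uroplakins and the transcription factor Wt1. After PH most liver cells enter the cell cycle, hepatocytes first and cells of the ducts and vessels later.

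The 4 genes used to mark the comparison separated the populations, but not all in 1 direction (plot of the 4 marker genes by library). Muc1, a membrane mucin of ductal and glandular epithelium (mm9 chr3:89032978-89037303, plus strand), reached 149.5 and 151.3 FPKM in PH cBEC, against 28.5 and 14.98 FPKM in PH NPD. It was 6.92-fold higher in cBEC. The log2 difference was 2.80 with an SE of 0.31 (limma adjusted p = 0.00212). Both cBEC libraries lay far above both NPD libraries, and the NPD libraries differed more from each other than the cBEC libraries did.

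Msln, which encodes the surface protein mesothelin (mm9 chr17:25885558-25891272, minus strand), stood at only 15.3 and 3.85 FPKM in PH cBEC, against 1420 and 1622 FPKM in PH NPD. Its level was 159-fold higher in NPD, or -7.42 on the log2 scale for cBEC minus NPD (SE 0.58, adjusted p = 0.00111). The NPD libraries were close to each other, while the cBEC libraries were both low and unequal. Cemip, a hyaluronan-degrading protein (mm9 chr7:91081367-91235015, minus strand), was at 0.0758 FPKM and listed at 0 in PH cBEC, against 12.6 and 10.5 FPKM in PH NPD (log2 difference -3.59, SE 0.22, adjusted p = 0.000439). Bcas1 (mm9 chr2:170172491-170253345, minus strand) was at 0.0545 FPKM and listed at 0 in PH cBEC, against 0.526 and 0.709 FPKM in PH NPD, under the minimum for a test. Of the 4 markers only Muc1 was therefore higher on the biliary side.

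**Figure D1:**
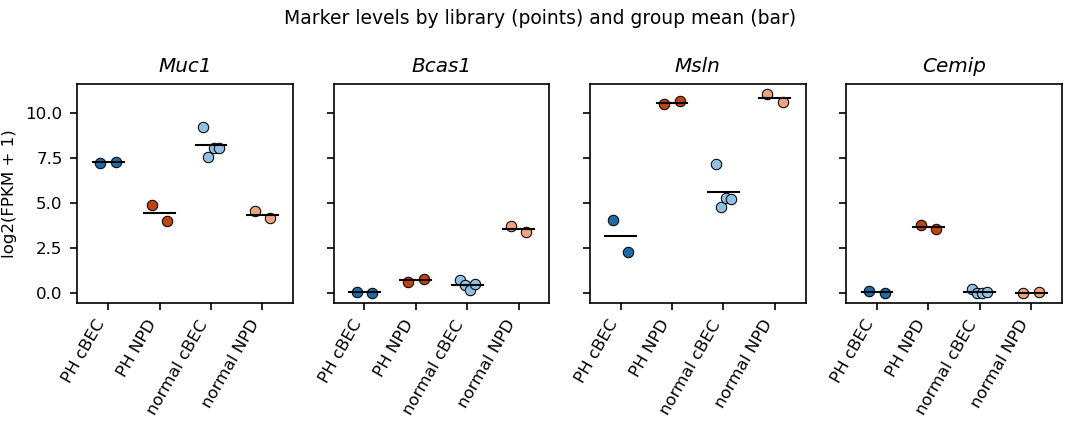
Levels of Muc1, Bcas1, Msln and Cemip as log2(FPKM + 1) on the vertical axis, by group (PH cBEC, PH NPD, normal cBEC, normal NPD) on the horizontal axis, with 1 point per library and a bar at each group mean. Muc1 was higher in cBEC than in NPD in both conditions, Msln was higher in NPD in both, Cemip was highest in PH NPD, and Bcas1 in normal NPD.

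Promoter sequences are shown here as a description, and shared control of the genes of each side was not tested. RefSeq promoters (GRCm38.p6) were found for 19 of the 30 genes of a biliary list (23 promoters) and for 20 of the 29 genes of a mesothelium list (23 promoters). Msln, Bcas1 and Ehf had no entry. The 250 bases before each start were searched on both strands for AACCNGTT (a grainyhead-like motif), AGGAAG (ETS factors such as EHF and ELF3), GGAATG (TEAD factors) and GTGGGAG (a WT1 core), where N is any base. Matches stand in capitals in the promoters of Muc1 (chr3:89228806-89229055, plus strand) and of the mesothelial uroplakin gene Upk3b (chr5:136038246-136038495, plus strand), and none of these overlap.
Muc1: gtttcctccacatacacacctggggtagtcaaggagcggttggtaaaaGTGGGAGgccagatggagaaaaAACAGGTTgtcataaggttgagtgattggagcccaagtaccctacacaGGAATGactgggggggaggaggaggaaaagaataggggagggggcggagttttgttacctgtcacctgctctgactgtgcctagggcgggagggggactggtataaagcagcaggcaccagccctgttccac
Upk3b: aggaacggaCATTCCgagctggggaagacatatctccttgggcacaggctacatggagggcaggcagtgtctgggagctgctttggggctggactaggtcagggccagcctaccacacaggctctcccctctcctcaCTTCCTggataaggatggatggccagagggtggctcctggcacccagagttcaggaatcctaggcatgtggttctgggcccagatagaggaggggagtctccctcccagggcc
The Muc1 promoter held 1 match each to the WT1 core, grainyhead-like and TEAD motifs in that order, and the Upk3b promoter 1 match each to the TEAD and ETS motifs.

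The grainyhead-like motif was in 5 of the 23 biliary list promoters (21.7%), in 0 of the 23 mesothelium list promoters and in 1.8% of all 32851 promoters of the same length. Grhl2, a grainyhead-like factor of epithelia, was itself at 38.2 and 35.6 FPKM in PH cBEC, against 6.25 and 3.84 FPKM in PH NPD (log2 difference 2.68, adjusted p = 0.00121). The bases around each match, with the motif in capitals, are given for these 5 promoters, of which Prom1 has 2, and for that of Muc1, which is not on the list.
Muc1 (chr3:89228865-89228894, plus strand): gatggagaaaaAACAGGTTgtcataaggtt
Prom1 (chr5:44094795-44094824, minus strand): ggctcctggggAACTGGTTgtctctgagta
Prom1 (chr5:44101840-44101869, minus strand): ctagaggacgcAACAGGTTcccagagtcct
Rab25 (chr3:88548363-88548392, minus strand): agcagacacctAACCTGTTtaacctgtctg
Sfn (chr4:133602334-133602363, minus strand): ttgtgacctcaAACTGGTTtggttcacccc
Wfdc15b (chr2:164221664-164221686, minus strand): tagccttgaaaAACAGGTTttgt
Here Prom1 encodes the membrane protein prominin 1, Rab25 an epithelial trafficking GTPase, Sfn a 14-3-3 protein of epithelia and Wfdc15b a small secreted protein. The ETS motif was in 14 biliary list promoters (60.9%), 8 mesothelium list promoters (34.8%) and 29.5% of all promoters, and the TEAD motif in 13.0%, 26.1% and 12.6%. The WT1 core was in 13.0%, 8.7% and 8.2%. Over the genes called higher and lower in PH cBEC that were low in hepatocytes, the grainyhead-like motif was in 2.2% and 1.3% of promoters and the ETS motif in 27.5% and 28.2%, so the shares of the short list did not extend to the whole comparison. A match is a string of letters and says nothing of binding.

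After PH, 5845 of the 13033 genes differed between cBEC and NPD, or 44.8% (limma on log2(FPKM + 1), Benjamini-Hochberg adjusted p under 0.05). Of these, 2707 were higher in cBEC (20.8%) and 3138 were higher in NPD (24.1%), the median difference of all genes tested was 0.01, and 6960 genes had an unadjusted p under 0.05. Which side held more calls depended on the setting. Quantile normalization gave 3378 higher in cBEC and 2860 lower (54.2% higher, against 46.3% as reported), and there were 1491 higher and 1118 lower without PH NPD library 1, and 1095 and 1028 without library 2. In all 5845 the 2 libraries of 1 population lay above the 2 of the other, which a call with so few libraries nearly requires. Genes that were not called could separate as well, such as Actb (log2 difference 0.23, limma adjusted p = 0.267), so the separation adds no support. The count depended on the NPD libraries. It was 7121 without PH cBEC library 1 and 6686 without library 2, but 2609 without PH NPD library 1 and 2123 without library 2. Of those, 2573 and 2116 were among the 5845. With 1 NPD library left, a gene present in NPD alone can no longer reach 1 FPKM in 2 libraries, and 4894 of the 5845 genes were still tested in each case.

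Filters on the remaining libraries that were chosen after seeing the data gave other counts. With 1 FPKM in at least 1 remaining library, 6644 and 6134 genes passed without PH cBEC library 1 or 2, but 0 passed without PH NPD library 1 or 2. There the smallest adjusted p was 0.0528 and 0.0864 by limma, with 4420 and 4038 genes at an unadjusted p under 0.05. Over the genes tested with all libraries the counts were 7183 and 6873 without a cBEC library, and 1707 and 1260 without an NPD library. The lone NPD library is assumed in these fits to vary like the cBEC libraries.

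The differences were larger on the NPD side (plot of difference against level). Genes at 10 FPKM or more in normal or PH hepatocytes are set aside in this count, since many transcripts of hepatocytes were listed at exactly 0 here. Of the remaining called genes, 1958 were higher in cBEC, with a median difference of 1.13 on the log2 scale, and 2035 were higher in NPD, with a median of 1.66. A difference over 3 was reached by 2 genes on the cBEC side and 427 on the NPD side, and one over 4 by 0 and 222. Among genes at 20 FPKM or more in the higher population, 0 of 833 on the cBEC side and 295 of 734 on the NPD side exceeded 3.

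**Figure D2:**
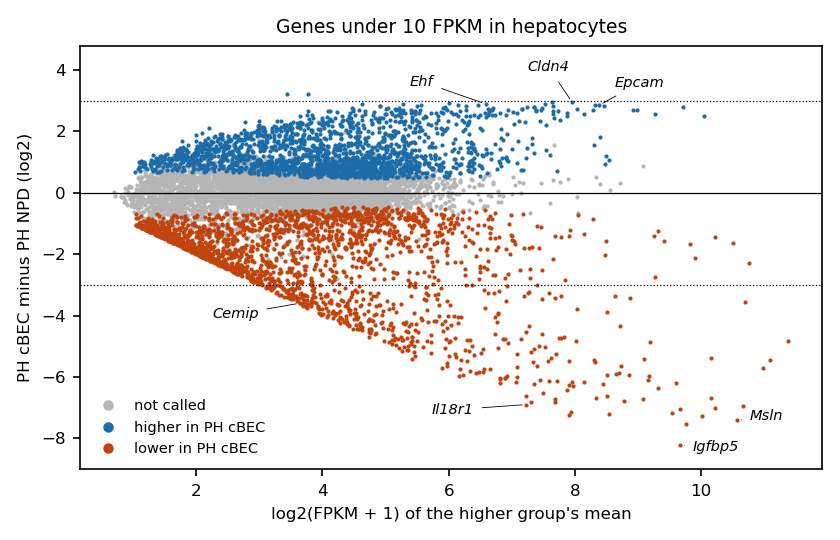
Log2 difference (PH cBEC minus PH NPD, vertical axis) against the level in the higher population as log2(FPKM + 1) (horizontal axis), with 1 point per gene under 10 FPKM in both hepatocyte groups and dotted lines at 3 above and below 0. Abundant genes of the cBEC side stop just under 3, at Cldn4 (2.96), while the NPD side reaches Igfbp5 (-8.21).

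Among genes low in hepatocytes, and with 2 microRNA entries at differences over 3 left out by the rule for named genes, the cBEC side was led by Cldn4. This gene of a tight junction claudin reached 323.3 and 170.4 FPKM in PH cBEC, against 46.9 and 18.3 FPKM in PH NPD (log2 difference 2.96, SE 0.52, adjusted p = 0.0087). Epcam, an adhesion protein of biliary cells (mm9 chr17:88035319-88050467, plus strand), was at 330.9 and 334.8 FPKM in cBEC and at 58.9 and 34.7 FPKM in NPD (2.85, SE 0.27, adjusted p = 0.00142). Whether these libraries were sorted on it is not given. NPD library 2 was the lower of the pair for both genes.

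The others by the rule for named genes, in order of size, were Rgs5, Cdh6, Lce6a, Ehf, Cited4, Cadm1, Ltb, Mmp7, Cldn7 and Tnfrsf19, with log2 differences from 2.95 down to 2.85. Ehf, an ETS factor of epithelia, was at 92.4 and 97.5 FPKM in cBEC and 17.8 and 7.83 FPKM in NPD (2.897, SE 0.36, adjusted p = 0.00317). Cdh6, a cadherin, was at 58.7 and 68.3 FPKM against 8.93 and 6.32 FPKM (SE 0.20, adjusted p = 0.000644). Mmp7, an epithelial metalloproteinase, had the least certain difference, from 89.3 and 50.3 FPKM to 17.7 and 3.64 FPKM (2.87, SE 0.71, adjusted p = 0.0275), and did not pass without PH cBEC library 1 (adjusted p = 0.124) or with no filter on low values (0.0595).

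The biliary list (keratins, transcription factors and surface proteins of bile duct cells) had 25 of 29 tested members higher in PH cBEC and 2 lower, with a median difference of 2.68 against 0.01 over all genes. Sox9, a progenitor and duct factor, was at 159.0 and 191.0 FPKM in cBEC and 28.6 and 23.2 FPKM in NPD (2.71, SE 0.18, adjusted p = 0.000561). Spp1, the secreted protein osteopontin, stood highest, at 14337 and 16348 FPKM in cBEC and still at 2666 and 1505 FPKM in NPD (2.93, adjusted p = 0.00188).

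The exceptions were keratins. Mesothelium also makes keratins, but its part in these values was not tested. Krt7 was at 258.1 and 183.3 FPKM in cBEC and at 825.6 and 1078 FPKM in NPD (-2.11, SE 0.24, adjusted p = 0.0023). Krt19 was at 551.6 and 350.8 FPKM in cBEC and at 1103 and 1287 FPKM in NPD (-1.44, SE 0.25, adjusted p = 0.00888). So the classical duct keratins were the higher in the population in which other duct genes were the lower.

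The level that remained in NPD was computed for the 22 biliary members called higher in cBEC and low in hepatocytes, a set that this call chose and that leaves out Krt7 and Krt19. Their level in NPD was a median of 15.1% of that in cBEC (12.01 to 52.6%), and 19 of the 22 lay between 10 and 20%. In NPD library 2 the level was a median of 0.604 times that in library 1, and 20 of the 22 were lower there, while the cBEC libraries had a ratio of 0.955. For 12 junction genes outside that set, chosen by the same call, the NPD level was a median of 16.3% of that in cBEC (11.1 to 60.5%), and all 12 were lower in NPD library 2. In bulk samples, fewer cells of a type and less RNA per cell cannot be told apart.

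The epithelial junction list had 33 of 40 tested members higher in cBEC and 3 lower (median 2.22). Dsp, the desmosome protein desmoplakin, was at 149.9 and 173.9 FPKM in cBEC and 28.4 and 17.9 FPKM in NPD. Cldn6 was at 218.9 and 247.2 FPKM against 46.0 and 34.8 FPKM (2.51, SE 0.19, adjusted p = 0.000765). The 3 that were higher in NPD were claudins and a cadherin of other epithelia. Cldn15 was at 4.25 and 1.90 FPKM in cBEC and 245.7 and 315.9 FPKM in NPD (-6.16, adjusted p = 0.000305), Cldn10 differed by -3.48 and Cdh3, P-cadherin, by -1.99.

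Genes of bile secretion and transport were mostly on the cBEC side, with 14 of 23 tested members higher and 4 lower (median 1.93). Cftr, the chloride channel of duct cells, was at 35.9 and 50.3 FPKM in cBEC and 9.78 and 8.42 FPKM in NPD (2.11, adjusted p = 0.00172). Slc10a2, which takes up bile acids, was at 9.04 and 16.1 FPKM against 1.56 and 1.02 FPKM (2.53, adjusted p = 0.00329), and Sctr, the secretin receptor, was at 41.1 and 19.3 FPKM against 5.44 and 3.48 FPKM (2.44, adjusted p = 0.00669). The water channel Aqp1 went the other way, at 8.48 and 2.57 FPKM in cBEC and 295.1 and 429.2 FPKM in NPD (-5.94, SE 0.49, adjusted p = 0.000989). Without either PH NPD library the lower members numbered 2.

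Of the mucin and mucosal defence list 8 members were tested, 5 higher and 3 lower in cBEC (median 2.44). Tff2, a trefoil peptide, was at 39.3 and 19.2 FPKM in cBEC and 4.48 and 1.90 FPKM in NPD (2.84, adjusted p = 0.00628). Slpi, a secreted protease inhibitor, was at 41.2 and 4.75 FPKM in cBEC and 4410 and 3964 FPKM in NPD (-8.07, SE 0.93, adjusted p = 0.00304), and Lcn2, an iron-siderophore binding protein, was listed at 0 in both cBEC libraries and stood at 46.5 and 74.8 FPKM in NPD. Lcn2 is abundant in hepatocytes (10 FPKM or more), and the 0 of such a gene may be a failed estimate. Of the 3 lower members, 1 was low in hepatocytes. None of the 3 lower members passed without either NPD library. Primary cilium genes moved less, with 16 of 32 higher and 2 lower (median 0.60). Pkhd1, the duct cilium protein fibrocystin, was at 151.8 and 180.3 FPKM against 30.0 and 20.4 FPKM, and the transport protein gene Ift81 at 21.1 and 19.3 FPKM against 7.32 and 5.56 FPKM (1.52, adjusted p = 0.00313). The count of 16 was 7 without PH NPD library 1 and 3 without library 2.

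The 12 genes named on the NPD side were Igfbp5, Mgp, Msln, Upk3b, Myl7, Sulf1, Igfbp6, Fmod, Upk1b, Timp1, Col3a1 and Il18r1, with differences from -8.21 to -6.90. Igfbp5, an insulin-like growth factor binding protein, stood at 2.52 and 0.989 FPKM in PH cBEC, against 604.1 and 1018 FPKM in PH NPD (SE 0.37, adjusted p = 0.000261). Upk3b, whose promoter is printed above (mm9 chr5:136514366-136520863, plus strand), was at 8.50 and 3.64 FPKM against 921.0 and 1144 FPKM (-7.27, SE 0.36, adjusted p = 0.000289). Col3a1, a fibrillar collagen, was at 12.1 and 12.3 FPKM against 1557 and 1666 FPKM (-6.93, SE 0.14, adjusted p = 8.56e-05). Without PH NPD library 2 Msln and Timp1 did not pass (adjusted p = 0.0561 and 0.0958), and without library 1 Timp1 did not pass (0.0672).

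The mesothelium list stood almost entirely on the NPD side, with 0 of 29 members higher in cBEC and 27 lower (median -4.86). The count was 24 without PH NPD library 1 and 23 without library 2. Wt1, the transcription factor that defines mesothelium, stood at 1.46 and 0.552 FPKM in PH cBEC, against 119.4 and 120.9 FPKM in PH NPD (-5.95, SE 0.25, adjusted p = 0.000236). Pdpn, the surface protein podoplanin, was at 18.1 and 20.01 FPKM against 539.1 and 627.8 FPKM (-4.86), and Lrrn4 at 4.58 and 1.85 FPKM against 441.4 and 434.7 FPKM (-6.78, adjusted p = 0.000278). The FPKM of the 29 members summed to 1904 and 2150 in cBEC and to 18766 and 22428 in NPD. The members that did not pass were Podxl (-0.32, adjusted p = 0.205) and Tm4sf1 (-0.67, adjusted p = 0.068), which other epithelia and vessels also make.

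The libraries labelled as ducts thus held the defining genes of mesothelium at high level together with the genes of ducts at a low one, and are called PH NPD libraries here without a cell type being assigned. Msln was at 1811 ± 372 FPKM (SD, n = 2) in normal NPD and at 506 ± 152 FPKM (SD, n = 2) in PH Thy1 cells, and Wt1 at 123 ± 14.97 and 41.9 ± 15.3 FPKM (SD, n = 2 each), so these genes were not particular to PH or to NPD. On the other side, 25 mesothelium members that were lower and low in hepatocytes stood in PH cBEC at a median of 1.45% of their NPD level, against 0.484% in PH BEC, and 17 of the 25 were lower in cBEC library 2 than in library 1. PH cBEC library 1 correlated with PH BEC library 1 at 0.992.

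**Figure D3:**
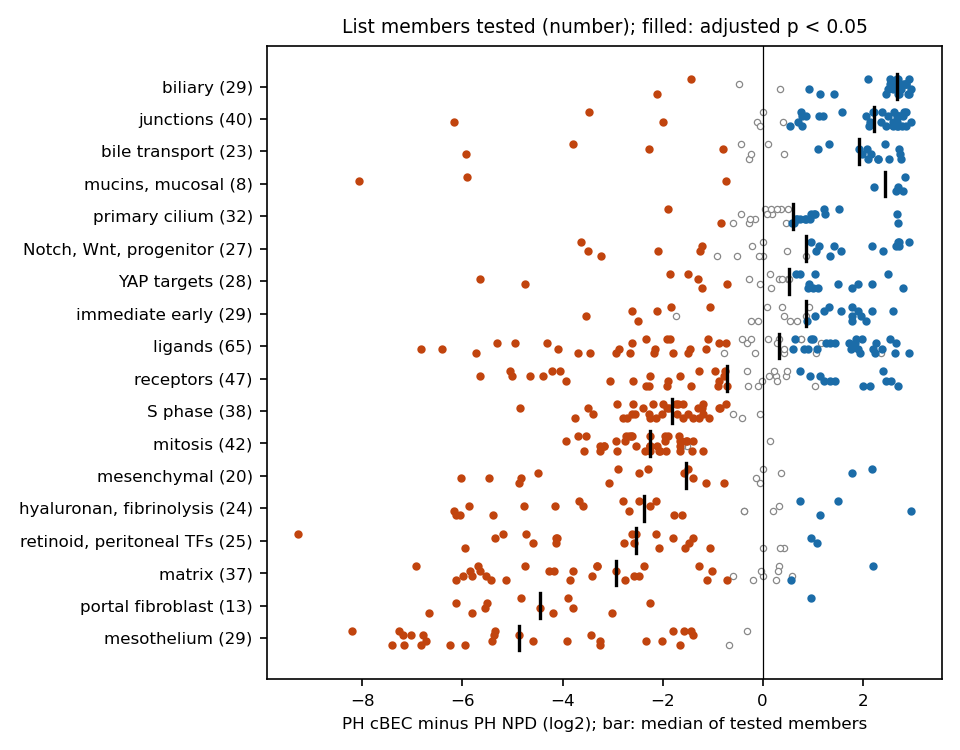
Log2 difference (PH cBEC minus PH NPD, horizontal axis) of every tested member of 18 gene lists (vertical axis), with filled points at adjusted p under 0.05, open points above it and a bar at each list's median. Biliary (median 2.68) and junction (2.22) genes lie to the right, and mesothelium (-4.86), portal fibroblast (-4.45) and collagen and matrix genes (-2.93) to the left.

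Genes of mesenchymal transition included 14 of 20 that were lower in cBEC and 2 higher (median -1.53). Vim, the intermediate filament vimentin, was at 61.5 and 37.9 FPKM in cBEC and 2218 and 2129 FPKM in NPD (-5.46, SE 0.25, adjusted p = 0.000271). Acta2, smooth muscle actin, was at 1.20 and 1.16 FPKM against 74.0 and 53.1 FPKM (-4.87, adjusted p = 0.000254). The pair higher in cBEC was Fn1, fibronectin, at 747.6 and 586.3 FPKM against 191.1 and 109.6 FPKM (2.19, adjusted p = 0.00412), and Cdh2, N-cadherin (1.79). Both are abundant in hepatocytes, and no member low in hepatocytes was higher in cBEC. The 14 became 9 and 8 without PH NPD library 1 and 2.

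The matrix list had 27 of 37 members lower in cBEC and 2 higher (median -2.93). Col1a1 was at 7.67 and 4.53 FPKM in cBEC and 312.4 and 323.9 FPKM in NPD (-5.53, SE 0.24, adjusted p = 0.000254), and Eln, elastin, at 2.67 and 1.17 FPKM against 141.9 and 275.7 FPKM. Lamb3, a chain of the epithelial laminin 332, was higher in cBEC, at 11.1 and 8.25 FPKM against 1.36 and 1.25 FPKM (2.20, adjusted p = 0.00188). The basement membrane proteoglycan gene Hspg2 was at 150.7 and 131.1 FPKM against 139.9 and 139.2 FPKM (0.01, adjusted p = 0.964).

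Genes of hyaluronan handling and clot removal numbered 16 lower and 4 higher of 24 (median -2.36), and the 16 became 10 without either NPD library. Has1, which makes hyaluronan, was at 2.82 and 0.821 FPKM in cBEC and 140.9 and 242.6 FPKM in NPD (-6.14, SE 0.43, adjusted p = 0.000647). Thbd, thrombomodulin, was at 1.46 and 0.315 FPKM against 117.3 and 117.9 FPKM, and Plat, tissue plasminogen activator, at 3.66 and 3.02 FPKM against 97.6 and 139.1 FPKM (-4.76). The hyaluronidases Hyal1 (1.504) and Hyal2 (1.14) were higher in cBEC, while the hyaluronan-degrading Cemip was higher in PH NPD.

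Among retinoid genes and transcription factors of the peritoneal lining, 20 of 25 were lower in cBEC and 2 higher (median -2.53). Aldh1a2, which makes retinoic acid, was at 6.50 and 6.36 FPKM in cBEC and 180.0 and 175.5 FPKM in NPD (-4.59). Gata4 was at 0.682 and 0.428 FPKM against 25.1 and 26.6 FPKM (-4.11), but its relative Gata6 was at 76.7 and 65.8 FPKM against 56.2 and 48.8 FPKM (0.43, adjusted p = 0.0835). The receptor genes Nr2f2 (0.96, adjusted p = 0.0214) and Rarb (1.08, adjusted p = 0.0291) were the 2 higher in cBEC. Without PH NPD library 1 or 2, 3 and 4 members were lower.

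Cell cycle genes were on the NPD side without exception among those called (plot of cell cycle lists by library). Of the S phase list, 35 of 38 were lower in cBEC and 0 higher (median -1.81). Of the mitosis list, 39 of 42 were lower and 0 higher (median -2.25). Rrm2, a subunit of ribonucleotide reductase, stood at 0.293 and 0.127 FPKM in PH cBEC, against 43.6 and 26.5 FPKM in PH NPD (-4.86, SE 0.29, adjusted p = 0.000428). Ccne1, cyclin E1, was listed at 0 in both cBEC libraries and stood at 13.5 and 11.4 FPKM in NPD. Top2a, the topoisomerase of dividing cells, was at 1.48 and 0.524 FPKM against 41.1 and 20.1 FPKM (-3.94, SE 0.42, adjusted p = 0.00197). Both NPD libraries were above both cBEC libraries for these genes, and NPD library 1 was the higher of the pair.

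The members of the S phase list that did not pass were polymerase and primase genes, Pola1 (-0.06, adjusted p = 0.833), Pole (-0.41, adjusted p = 0.239) and Prim1 (-0.59, adjusted p = 0.0743). The mean of the S phase list was 2.53 and 2.27 in PH cBEC, 4.44 and 4.19 in PH NPD and 2.30 and 2.09 in PH BEC, as log2(FPKM + 1). That of the mitosis list was 0.779 and 0.617, 3.41 and 2.46, and 0.520 and 0.461. The 2 libraries of PH NPD differed by more in mitosis than in S phase genes. Fewer members of both lists were called lower when either PH NPD library was left out. A member under 1 FPKM in both cBEC libraries, such as Rrm2 or Ccne1, could then no longer be tested. The drop therefore cannot separate members that failed from members that were not tested.

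**Figure D4:**
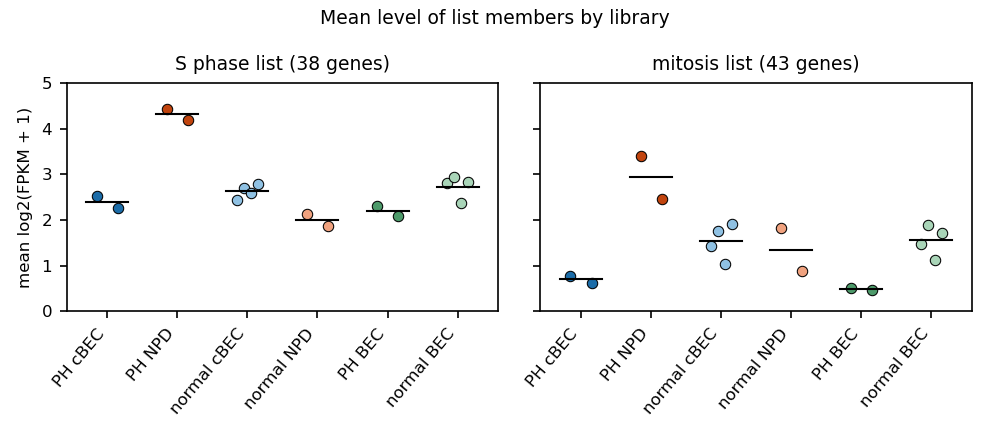
Mean log2(FPKM + 1) of 38 S phase genes and 43 mitosis genes (vertical axes) by group (horizontal axis), with 1 point per library and a bar at each group mean. PH NPD stands above PH cBEC, PH BEC and the normal groups in both lists, and its 2 libraries differ most in the mitosis list (3.41 and 2.46).

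In normal liver the S phase list had 13 of 33 members higher in cBEC. The 1 lower was the transcription factor E2f1 (-2.35, limma adjusted p = 0.0023), and the mitosis list had 1 higher and 1 lower of 33. All genes tested in normal liver had shares of 18.5% higher and 11.2% lower. Their median difference was 0.25 as reported and 0.06 with upper-quartile scaling, so part of the shift toward cBEC there followed the scaling. The difference between cBEC and NPD itself differed between PH and normal liver (interaction of a fit of both) in 27 of 38 S phase and 14 of 42 mitosis members, all toward NPD after PH, a direction called for 2.02% of all genes. These counts rested on the PH libraries. They were 21 and 4 without PH cBEC library 1, 8 and 0 without library 2, 4 and 0 without PH NPD library 1, and 6 and 2 without library 2. Without a normal library they were 19 to 30 and 3 to 17, with fewer than 10 mitosis members without normal cBEC library 2 (4) or 4 (6) and normal NPD library 2 (3). The 13 S phase members of normal liver became 7 to 9 without any normal library other than cBEC library 1. Mcm2, a subunit of the replicative helicase, was lower in cBEC after PH, at 18.6 and 15.1 FPKM against 49.0 and 49.4 FPKM (-1.498, adjusted p = 0.00203), and higher in cBEC in normal liver (1.49, adjusted p = 0.00133), with an interaction of -2.99 (adjusted p = 0.000663). Uhrf1, a maintenance factor of DNA methylation, did the same (-2.61 after PH, 1.86 in normal liver, interaction -4.46, adjusted p = 0.00117). Both interactions passed with each library left out in turn.

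Of the 65 tested growth factors and other ligands, 25 were higher and 25 lower in cBEC (median 0.33, plot of ligands by size). The shares over all genes tested were 20.8% higher and 24.1% lower. On the NPD side were Rspo1, which potentiates Wnt signals, at 1.21 and 0.487 FPKM in cBEC and 191.7 and 219.0 FPKM in NPD (-6.83, SE 0.23, adjusted p = 0.000178), and Il6, the cytokine that primes hepatocytes, at 0.348 FPKM and 0 against 32.2 and 37.7 FPKM (-4.95, SE 0.24, adjusted p = 0.000277). Wnt2b (-5.31), Fgf2 (-4.30) and Bmp4 (-3.70) were on the same side. For Rspo1 and Il6 the cBEC libraries were near 0 and the NPD libraries close together.

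On the cBEC side, after Spp1, was the Notch ligand Jag1, at 144.4 and 186.6 FPKM against 28.6 and 22.02 FPKM (2.66, SE 0.21, adjusted p = 0.000872). Hbegf, an EGF receptor ligand, was at 253.6 and 176.9 FPKM against 54.8 and 28.6 FPKM (2.39, SE 0.35, adjusted p = 0.00508). Angpt1 (2.64), Pdgfb (2.26), Pdgfd (2.24), Tnf (2.20) and Vegfa (1.95) were also higher there. Without PH NPD library 1 and 2 the counts were 18 and 15 higher, and 9 lower in each case. Csf1, a growth factor of macrophages, was higher in NPD (-1.79), and Il34, which shares its receptor, in cBEC (1.77).

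**Figure D5:**
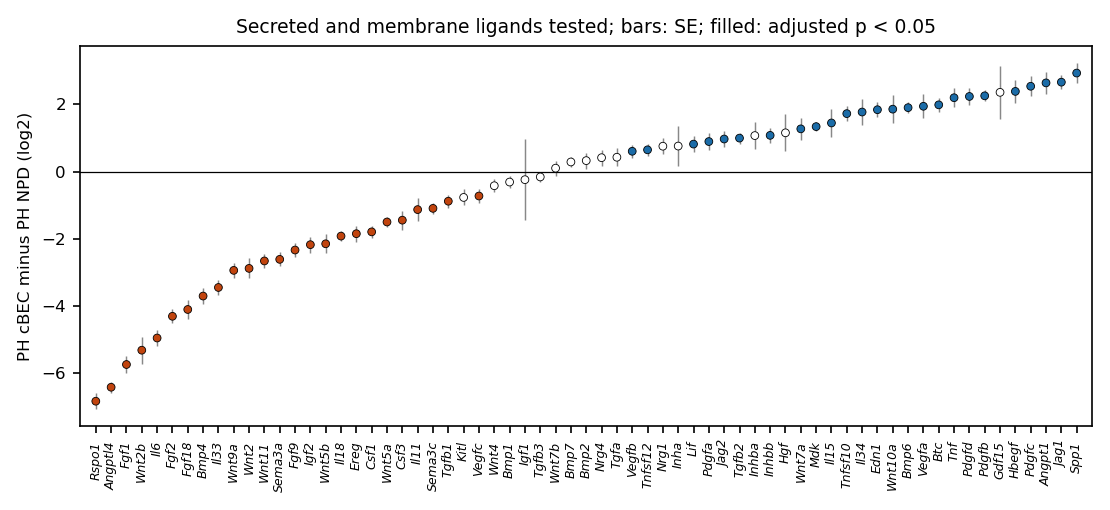
Log2 difference (PH cBEC minus PH NPD, vertical axis) with its SE for the 65 tested ligands (horizontal axis), ordered by size. The order runs from Rspo1 (-6.83) to Spp1 (2.93), with 25 called on each side.

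Receptors were more often on the NPD side, with 24 of 47 lower in cBEC and 12 higher (median -0.70), against 24.1% and 20.8% of all genes tested. Of the pair that receives Il6, Il6ra was at 0.133 and 0.208 FPKM in cBEC and 15.9 and 21.0 FPKM in NPD (-4.04), while Il6st was at 81.4 and 123.7 FPKM against 175.0 and 199.2 FPKM (-0.89, adjusted p = 0.0309). Egfr was at 3.92 and 9.79 FPKM against 36.7 and 32.3 FPKM (-2.28, SE 0.38, adjusted p = 0.00763), whereas its relatives Erbb3 (2.14) and Erbb4 (2.47) were higher in cBEC. Fgfr3 was at 622.1 and 392.1 FPKM in cBEC and 99.7 and 56.2 FPKM in NPD (2.70). Met, the receptor of hepatocyte growth factor, differed least of these, at 36.9 and 57.3 FPKM against 78.2 and 80.1 FPKM (-0.77, adjusted p = 0.0472). The 24 became 11 and 10 without PH NPD library 1 and 2.

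Of 14 tested chemokines, 4 were higher and 6 lower in cBEC (median -0.48), against 20.8% higher and 24.1% lower over all genes tested. With so few members these counts are not read as a pattern. Ccl7, which attracts monocytes, was at 0.734 and 0.546 FPKM in cBEC and 49.9 and 33.8 FPKM in NPD (-4.68), and Ccl2 at 17.2 and 33.3 FPKM against 137.0 and 56.1 FPKM (-1.83, SE 0.50, adjusted p = 0.0347). Cx3cl1 (1.34), Cxcl12 (1.40) and Cxcl16 (0.81) were higher in cBEC. Without PH NPD library 1 and 2, 0 and 2 members were lower.

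Targets and parts of the Notch, Wnt and Hippo pathways were called on both sides. Over all genes tested, 20.8% were higher in cBEC and 24.1% lower, and the share of lower members in both lists given here was near the latter. Of the Notch, Wnt and progenitor list 13 of 27 were higher in cBEC and 6 lower (median 0.86), with 11 and 8 higher and 3 lower without PH NPD library 1 and 2. Hes1, a Notch target, was at 659.5 and 638.5 FPKM in cBEC and 108.5 and 65.9 FPKM in NPD (2.92, SE 0.26, adjusted p = 0.00122). The Wnt target genes Axin2 (-2.10) and Nkd1 (-3.63) were lower in cBEC, where they were at 1.01 FPKM or less. Of the YAP target list 13 of 28 were higher and 7 lower (median 0.52), with 9 and 6 higher and 4 lower without PH NPD library 1 and 2. Ctgf was at 802.1 and 878.7 FPKM against 132.3 and 107.6 FPKM (2.80, SE 0.17, adjusted p = 0.000434) and Cyr61 at 2896 and 3049 FPKM against 681.7 and 617.4 FPKM (2.19, adjusted p = 0.000622), while Yap1 itself was at 42.8 and 50.3 FPKM against 42.6 and 40.8 FPKM (0.15, adjusted p = 0.464).

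Immediate early genes, which respond within minutes to stimuli and also to cell isolation, were higher in cBEC for 13 of 29 members and lower for 6 (median 0.86). Among all genes tested 20.8% were higher and 24.1% lower, so the share of lower members was near that of all genes. Atf3 was at 2196 and 1333 FPKM in cBEC and 481.3 and 343.7 FPKM in NPD (2.07), and Egr1 at 2841 and 1663 FPKM against 763.5 and 518.2 FPKM (1.79). Klf4 went the other way, at 14.8 and 5.58 FPKM against 95.3 and 143.3 FPKM (-3.53). In a single fit of all 20 groups of the series, 7 were higher. The part of cell handling in these values was not tested.

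Markers of further cell types were read as a check on what the libraries held. The portal fibroblast list stood on the NPD side, with 12 of 13 tested members lower in cBEC and 1 higher (median -4.45), and 5 lower without either NPD library. Its 19 members summed to 85.5 and 66.5 FPKM in cBEC and 1198 and 1397 FPKM in NPD. Cd34, which the mesothelium, fibroblasts and vessels also carry, was at 2.66 and 1.76 FPKM against 316.8 and 329.6 FPKM (-6.67, SE 0.19, adjusted p = 0.000137), and Thy1 at 0.207 FPKM and 0 against 27.3 and 33.7 FPKM (-4.83). The stellate cell list had 5 higher and 6 lower of 14 (3 and 3 without either NPD library, and 3 higher without PH cBEC library 1), and sums of 185.8 and 331.6 FPKM against 354.0 and 353.8 FPKM.

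Vessel and blood cell markers were low in both. Of the endothelium list 7 of 22 members were tested, 1 higher and 3 lower, with 7 members under 1 FPKM in all 4 libraries. Its sums were 39.0 and 29.9 FPKM in cBEC and 209.4 and 212.2 FPKM in NPD, where Esam (130.8 and 137.9 FPKM) made up most, while Pecam1, carried by all endothelium, was at 1.92 and 0.50 FPKM. Of the macrophage list 3 of 11 were higher and 7 lower, and of the 7 none passed without either NPD library. Sums were 102.4 and 94.5 FPKM in cBEC against 69.8 and 54.4 FPKM in NPD. Of the 21 members, 11 were listed at 0 in both cBEC libraries, among them Clec4f, Timd4, Adgre1 and Marco, so the higher sum in cBEC came from other members.

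Lymphocyte, neutrophil and red cell lists were near the floor. Of the T and NK list 14 of 16 members were under 1 FPKM in all 4 libraries, and Cd3d, Cd3g and 5 others were listed at 0 throughout, with 1 of 2 tested members higher and 1 lower. The B cell list had 10 of 11 members under 1 FPKM, Ms4a1 and Pax5 at 0 throughout and 1 of 1 lower (Spib). The neutrophil list had 13 of 14 under 1 FPKM, S100a8 and Ly6g at 0 throughout and 1 of 1 lower (Lcn2, abundant in hepatocytes). The red cell list had 0 members tested. The part of other cells in the differences above was not tested beyond these levels.

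Hepatocyte genes need their own reading. Of the hepatocyte list of 20 genes, 14 were listed at 0 in all 4 libraries, Alb and Apoa1 among them. Of the 2 tested, Hnf4a, a transcription factor, was at 9.85 and 9.46 FPKM in cBEC against 3.33 FPKM and 0 in NPD (2.36, adjusted p = 0.0404), and did not pass without PH cBEC library 1. Trf, transferrin, was at 156.4 and 469.9 FPKM against 377.9 and 197.2 FPKM. Among genes at 20 FPKM or more in PH NPD, 46 of 3076 that were abundant in hepatocytes (1.5%) and 2 of 1656 that were not (0.121%) were listed at 0 in both PH cBEC libraries. The reverse, listed at 0 in both NPD libraries, held for 0 of 2997 and 0 of 1791.

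Such a 0 may be a failed estimate, so no fold is given against it. The hepatocyte-abundant genes named on the NPD side, whose rank rests on these zeros, were Rarres2, a secreted chemoattractant (listed at 0 in both cBEC libraries, 500.5 and 776.1 FPKM in NPD), and the complement protease gene C1s1 (listed at 0, 376.1 and 379.6 FPKM in NPD). On the cBEC side they were the esterase gene Aadac, at 60.5 and 96.9 FPKM against 2.76 and 1.45 FPKM (4.68, SE 0.32, adjusted p = 0.000598), and the gap junction gene Gjb1 (3.89, SE 0.44, adjusted p = 0.00236).

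In normal liver, where no library is shared with the comparison above, 4085 of 13757 genes differed (29.7%), 2539 higher in cBEC (18.5%) and 1546 lower (11.2%). With the median of all genes at 0.25, 62.2% of calls were higher in cBEC. This split followed the scaling, at 48.3% with upper-quartile scaling and 50.4% with quantile normalization, where the medians were 0.06 and 0.09. Of 12697 genes tested in both conditions, 1643 were higher in cBEC in both, which is 60.9% of those after PH and 66.4% of those in normal liver. Another 1228 were lower in both, 42.0% of those after PH and 85.0% of those in normal liver. In normal liver the biliary list had 22 of 29 members higher (median 2.97) and the mesothelium list 27 of 29 lower (median -4.23).

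The size of the difference between cBEC and NPD itself differed between PH and normal liver in 369 of 14239 genes (2.59%), 82 toward cBEC after PH (0.576%) and 287 toward NPD (2.02%). The median interaction was -0.22, and 22.2% of calls were toward cBEC, against 39.4% (median -0.04) with upper-quartile scaling and 40.2% (median 0.04) with quantile normalization. Every PH library decided this count, which was 177 and 42 without PH cBEC library 1 and 2, and 14 and 21 without PH NPD library 1 and 2. It was 798, 136 and 245 without normal cBEC library 1, 2 and 4, and 200 without normal NPD library 2.

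Of the markers, Cemip had an interaction of -3.65 (SE 0.39, adjusted p = 0.0028), and was at 0.0100 ± 0.0142 FPKM in normal NPD (SD, n = 2). Bcas1 was at 12.3 and 9.54 FPKM in normal NPD and 0.389 ± 0.201 FPKM in normal cBEC (SD, n = 4), with an interaction of 2.45 (SE 0.41, adjusted p = 0.0187) that did not pass without PH cBEC library 1 or 2 (0.0595 and 0.0784) or PH NPD library 1 or 2 (0.154 and 0.108). That of Cemip passed without each of the other libraries, and was not tested without a PH NPD library. The interaction of Muc1, -1.08, did not pass (adjusted p = 0.44). Thy1 cells showed the same pair of patterns. Cemip was at 6.30 ± 2.70 FPKM in PH Thy1 and 0.0467 ± 0.00839 FPKM in normal Thy1 cells, and Bcas1 at 0.0151 ± 0.0214 and 4.49 ± 0.0282 FPKM (SD, n = 2 each).

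Toward NPD after PH the genes named for large interactions were Serpinb2, Hells and Ly6a. Serpinb2, an inhibitor of plasminogen activators, stood at 6.71 and 1.77 FPKM in PH cBEC, against 223.0 and 167.7 FPKM in PH NPD (interaction -5.65, SE 0.73, adjusted p = 0.00687). Hells, a chromatin remodeller of dividing cells, was at 2.89 and 1.13 FPKM against 25.9 and 20.03 FPKM after PH (-3.05) and higher in cBEC in normal liver (1.71, adjusted p = 0.0226), with an interaction of -4.76 (SE 0.63, adjusted p = 0.00747). Ly6a, which has close paralogs whose shared reads may be split, had an interaction of -4.62 (adjusted p = 0.0322). None of the 3 passed without PH NPD library 1 (adjusted p = 0.0651 for Serpinb2, 0.0706 for Hells and 0.166 for Ly6a) or library 2 (0.0531, 0.0564 and 0.162). Without PH cBEC library 2 Hells (0.0547) and Ly6a (0.126) did not pass. Ly6a also failed without PH cBEC library 1 (0.0800), normal cBEC library 2 (0.0685) and normal NPD library 2 (0.0521).

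Toward cBEC they were Slc4a11, Omd and Mturn, and in each the level in NPD was lower after PH than in normal liver. Slc4a11, a membrane transporter, stood at 8.01 and 5.25 FPKM in PH cBEC. It was at 11.3 and 11.2 FPKM in PH NPD, against 98.5 ± 12.3 FPKM in normal NPD (SD, n = 2), an interaction of 3.67 (SE 0.39, adjusted p = 0.00284). Omd, a small matrix proteoglycan, was listed at 0 in PH cBEC and stood at 1.26 and 1.33 FPKM in PH NPD, against 39.1 ± 4.89 FPKM in normal NPD (SD, n = 2; interaction 3.65, SE 0.49, adjusted p = 0.00822). Mturn had an interaction of 3.42 (adjusted p = 0.00105). Slc4a11 and Mturn passed without any 1 library. Omd did not pass without PH cBEC library 2 (0.0547), PH NPD library 1 (0.0754) or 2 (0.0633).

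Calls of opposite sign were made for 61 of the 12697 genes tested in both conditions, and 32 of the 61 were low in hepatocytes. Most were lower in cBEC after PH and higher in normal liver. That is also the direction of the median interaction of all genes, -0.22 as reported and -0.04 with upper-quartile scaling. Some of the 61 are named here, chosen after their values were seen. Chaf1b, a histone chaperone subunit of replicating cells, differed by -1.88 after PH and 1.38 in normal liver, and Dnmt1, the maintenance DNA methyltransferase, by -0.91 and 1.11. Col4a1, a basement membrane collagen, differed by -0.71 and 1.51. Fxyd3, a regulator of the sodium pump, differed by 1.15 after PH and by -1.03 in normal liver, and after PH was at 136.0 and 100.9 FPKM in cBEC and 46.7 and 58.3 FPKM in NPD (interaction 2.19, adjusted p = 0.0056, and 0.0651 without PH NPD library 1).

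Depth is unknown, since FPKM keep no read count. The sum of FPKM over all symbols ran from 417675 to 457401 in the 4 PH libraries, and 11700 to 12860 symbols reached 1 FPKM. Replicates correlated at 0.980 in PH cBEC and 0.991 in PH NPD, and libraries of different populations at 0.882 to 0.905. Because 1 is added before the log, the differences of genes near 1 FPKM are understated.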

How the data were processed

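RNA of 55 sorted libraries was sequenced by the authors, who deposited 1 table of FPKM with 36141 transcript rows, so its depth is unknown. The submitters' processing notes name CASAVA 1.8.2, Bowtie 1.0.0 and mm9 without a role, and the counting tool, annotation, strand setting and treatment of shared reads are not given in the sources used here. Interval starts in the table were read as counted from 0 (8255 of 35169 spans then match, against 901), and printed starts are 1 higher.

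The row with the highest mean was kept for each of 24478 symbols (18330 had 1 row). A gene had to reach 1 FPKM in 2 or more libraries of a comparison. Tests were run on log2(FPKM + 1), two-sided, with limma 3.58.1 (R 4.3.3; trended, robust variance prior) and Benjamini-Hochberg adjustment at 0.05. A gene was low in hepatocytes where its mean was under 10 FPKM in both hepatocyte groups. The 3 fits compared cBEC with NPD after PH, in normal liver, and between the conditions (interaction). The script was tested on simulated data. The plots come from matplotlib 3.10.9 in Python 3.11.15.

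The 4 markers were always named, with the 12 largest differences per direction (4 for the interaction, 2 for genes abundant in hepatocytes) among genes past the threshold with a difference of at least 1 and no overlap of libraries. Predicted genes, pseudogenes and small RNAs were left out, and up to 6 members per list were named, by p or by role. A few genes that met these rules, and 1 further motif that was searched, are not reported here. The comparison, its markers and the gene lists were chosen with earlier results of these data known. Libraries of equal number were not treated as pairs. The deviations of cBEC and NPD libraries after PH correlated at 0.03 across genes. With so few libraries this cannot tell whether equal numbers share an animal.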

Additional observations from a re-analysis of the deposited data

Results flagged for a closer look

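Within normal cBEC, the only group of 4 libraries in the comparisons, 4 of 14 values examined had 1 library far from the other 3. Chance alone marks about 1 in 20 such groups, but values that share a library are not independent. Msln was at 142.5 FPKM in library 1 and at 26.4 to 38.1 FPKM in the others, and the mean of the biliary list was 7.30 there against 6.97 to 6.99. Mturn was at 6.46 FPKM in library 1 and at 9.07 to 9.36 FPKM in the others. Serpinb2 was at 1.56 FPKM in library 4 and at 0 to 0.123 FPKM in the others. Library 1 correlated with the other 3 at 0.932 to 0.957, and they with each other at 0.973 to 0.980.

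The difference between cBEC and NPD was itself different after PH and in normal liver for 369 genes by the interaction term. Of the named genes, the difference was more toward cBEC after PH for Bcas1 (2.45), Slc4a11 (3.67), Omd (3.65) and Mturn (3.42). It was more toward NPD for Cemip (-3.65), Serpinb2 (-5.65), Hells (-4.76) and Ly6a (-4.62), all on the log2 scale.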

How the results depend on the processing

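After PH the count of 5845 genes stayed within 1.5 times under each alternative scaling, pseudocount, filter and prior, in a single fit of the 20 groups and with a replicate block (5960 genes, 2775 higher and 3185 lower), and 0 named genes changed direction. With libraries left out in turn it ran from 2123 to 7121 with the planned filter, and from 0 to 7183 with the filters added after seeing the data, where it was 1707 and 1260 over the genes tested with all libraries without PH NPD library 1 and 2. Pseudocount 0.1 kept 5555 of the calls, no filter on low values 4933, quantile normalization 5520 and the single fit 4206. In normal liver the count was 2642 with a replicate block, and 1909 to 5578 with libraries left out in turn. The interaction count was 242 with pseudocount 0.1, 649 in the single fit, 236 over genes low in hepatocytes, 250 with a replicate block, and 14 to 798 with libraries left out in turn. With pseudocount 0.1 the interactions of Bcas1, Omd and Serpinb2 did not pass (limma adjusted p from 0.0965 to 0.36), with a replicate block that of Bcas1 (0.0600), and after quantile normalization that of Ly6a (0.0583). The causes were not tested. The main limits are 2 libraries per population, an unknown depth, a library with conflicting labels and zeros of uncertain meaning among hepatocyte transcripts.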
